A study of Rattus norvegicus with 372 samples.

Results

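The wells described here are those of primary rat hepatocytes given the lower concentration of caffeine (400 µM), chloramphenicol (18 µM), diclofenac (16 µM), isoniazid (400 µM) or ranitidine (160 µM), chosen as a set because each changed few genes. They were found by the chemical and concentration in the sample labels. They made 60 of the 372 samples of the series, or 78 with the vehicle wells they were compared with. In all, 14 chemicals at 2 concentrations each were measured with TempO-Seq, in which pairs of detector oligos that meet on an mRNA are ligated, amplified and counted straight from cell lysate. The same lysates were read with a whole transcriptome panel (WT assay) and with the smaller S1500+ surrogate panel (ST assay). Hepatocytes came from male Wistar rats and were held in a collagen sandwich in a medium with insulin, epidermal growth factor and dexamethasone, a ligand of nuclear receptors that all wells therefore shared. Each treatment lasted 24 h, and both treated and vehicle wells held 0.5% DMSO. Batch 1 and batch 2 each used the cells of 1 rat, with 3 wells per treatment and batch. Vehicle wells numbered 3 in batch 1 and 6 in batch 2 of each assay. Wells labelled as medium alone also numbered 3 in batch 1 and 6 in batch 2 of each assay, and are not among the 78. Medium alone served as an alternative control. For chloramphenicol, the lower concentration of ketoconazole on the same plate served as a further control. Wells of 1 batch share a rat and were used as replicates, with batch as a term of the joint fits. The p-values below therefore rest mainly on the spread between wells, and 2 rats show little of the spread between rats.

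The 5 drugs have unlike targets. Caffeine blocks adenosine receptors and, at higher levels, phosphodiesterases, chloramphenicol binds bacterial and mitochondrial ribosomes, diclofenac inhibits cyclooxygenases, isoniazid is given against tuberculosis, and ranitidine blocks histamine H2 receptors. Hepatocytes carry sensors that raise drug metabolizing enzymes on contact with foreign compounds: the aryl hydrocarbon receptor (AhR) acts on Cyp1 genes, and the nuclear receptors CAR and PXR act on Cyp2b, Cyp2c, Cyp3a and Ugt genes. Gluconeogenic genes such as Pck1 answer to cyclic AMP (cAMP) during fasting.

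Promoters are shown for the gene that led in caffeine (Pck1) and for a pair of Cyp3a genes, the family that led in ranitidine, because known elements for cAMP and PXR lie in them. Each window runs from 250 bases before to 50 bases after the annotated start in RefSeq build GRCr8: Pck1 at chr3:182348322-182348621 (+ strand), Cyp3a2 at chr12:14343808-14344107 (− strand) and Cyp3a23-3a1 at chr12:14398754-14399053 (− strand). Searched on both strands, and set in capitals, are the cAMP response element TTACGTCA in Pck1 and, in the Cyp3a pair, the direct repeat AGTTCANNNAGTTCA, which lies here on the opposite strand.
Pck1: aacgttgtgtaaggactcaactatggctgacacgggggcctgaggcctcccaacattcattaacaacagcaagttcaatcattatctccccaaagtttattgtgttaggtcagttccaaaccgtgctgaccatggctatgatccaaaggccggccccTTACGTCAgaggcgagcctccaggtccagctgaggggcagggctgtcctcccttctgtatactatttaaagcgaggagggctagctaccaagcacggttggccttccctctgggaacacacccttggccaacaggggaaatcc
Cyp3a2: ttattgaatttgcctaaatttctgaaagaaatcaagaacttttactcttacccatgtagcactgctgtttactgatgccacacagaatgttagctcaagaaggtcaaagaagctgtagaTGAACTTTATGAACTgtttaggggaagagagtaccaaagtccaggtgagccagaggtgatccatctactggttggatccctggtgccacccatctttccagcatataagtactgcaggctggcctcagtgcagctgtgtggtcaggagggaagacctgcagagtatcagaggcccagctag
Cyp3a23-3a1: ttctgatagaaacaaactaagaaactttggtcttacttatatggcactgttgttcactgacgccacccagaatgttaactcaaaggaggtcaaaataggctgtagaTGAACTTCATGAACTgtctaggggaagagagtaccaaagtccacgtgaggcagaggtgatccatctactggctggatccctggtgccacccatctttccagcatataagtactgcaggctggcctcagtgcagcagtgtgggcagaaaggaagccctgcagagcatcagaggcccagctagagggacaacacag
The Pck1 match covers bases −93 to −86 from the start, and 0.807% of the 33469 rat promoters of this length hold those letters on either strand. The direct repeat covers bases −131 to −117 in Cyp3a2 and −144 to −130 in Cyp3a23-3a1, and these were the 2 promoters of 33469 that held it (0.00598%). No match to GCGTG, the core letters bound by AhR, lay in the same window of Cyp1a2, against 29.7% of all promoters. The letters sought in Pck1 and Cyp3a were those of elements already known there, so finding them was fixed in advance. These matches describe the windows, and no measurement here was made at them.

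Few genes passed the test in any of the 5 treatments. A gene was called a differentially expressed gene (DEG) at a Benjamini-Hochberg adjusted p under 0.05 in edgeR's quasi-likelihood test of treated against vehicle wells of both batches with batch as a term. Of 10191 genes tested in the WT assay, diclofenac changed 14 (0.137%; 12 up and 2 down), caffeine 12 (0.118%; 9 up and 3 down), chloramphenicol 9 (0.0883%; 7 up and 2 down), ranitidine 6 (0.0589%; 4 up and 2 down) and isoniazid 2, both up (0.0196%). Of 1760 genes in the ST assay, diclofenac changed 17 (0.966%), caffeine 11 (0.625%), chloramphenicol 6 (0.341%), ranitidine 5 (0.284%) and isoniazid 1 (0.0568%). These counts rested on few wells, which were left out by turns. Below, leaving out 1 well means 1 vehicle well, or the treated well of 1 number and batch in all 5 drugs at once. This gave 9 to 39 WT calls in diclofenac, 8 to 30 in caffeine, 2 to 15 in chloramphenicol, 4 to 10 in ranitidine and 1 to 2 in isoniazid. At an unadjusted p under 0.05 the WT assay held between 476 genes for isoniazid (4.67%) and 762 for chloramphenicol (7.48%). The other 9 low concentrations changed more genes, from 1.32% for doxorubicin (0.08 µM), 1.38% for acetaminophen (400 µM), 1.62% for ketoconazole (0.6 µM) and 2.4% for simvastatin (2.4 µM) through 5.87% for indomethacin (12 µM), 16% for naproxen (80 µM) and 17.4% for sulfasalazine (4 µM) to 29.1% for valproic acid (400 µM) and 56.2% for WY14643 (8 µM). The set was chosen for its few DEGs, so these counts restate that choice. The largest called |L2FC| (log2 fold change against vehicle) lay between 1.41 and 2.36 in the 5 drugs.

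**Figure D1:**
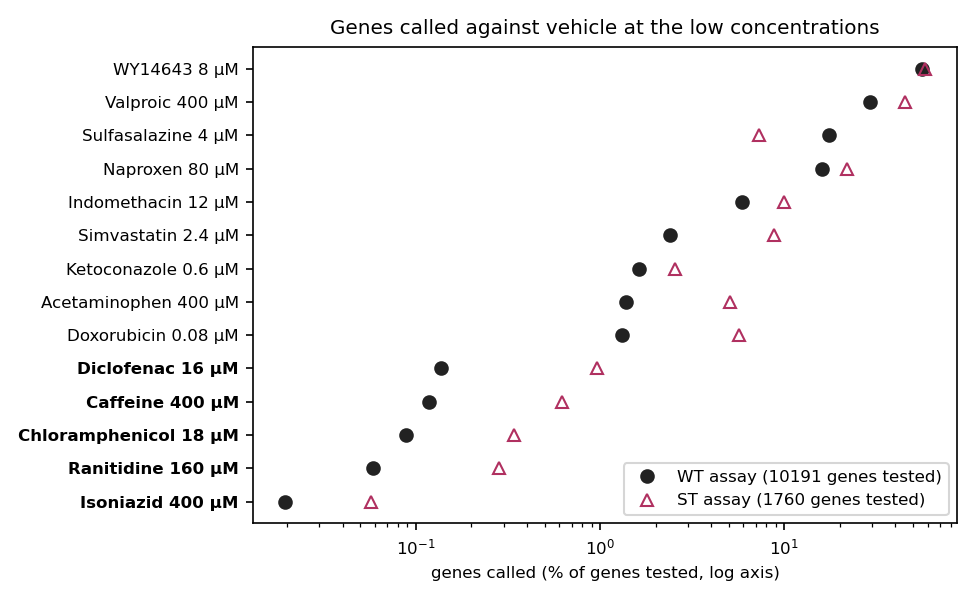
Share of tested genes called against vehicle at each of the 14 low concentrations (x axis, percent on a log scale), with filled circles for the WT assay, open triangles for the ST assay and the 5 drugs of this report in bold. The 5 lie at the low end of the WT assay, between 0.0196% and 0.137%, below the 1.32% of doxorubicin.

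The summed level of 11 measured hepatocyte markers ran from 31714 to 53249 CPM (counts scaled to the size of the library) in treated wells and from 36110 to 43566 in vehicle wells of the WT assay. Most of that sum came from Alb (mean 13122 CPM), Apoa1 (11628), Tf (7893) and Ttr (7746), while Tat (35.4), Asgr1 (22.5) and Cyp2e1 (4.66) were low. The 9 Kupffer and leukocyte markers summed to between 53 and 123 CPM in treated and 62.9 and 98.2 in vehicle wells, the 6 biliary markers to between 24.9 and 43.6 against 37.0 and 47.4, and the 7 endothelial markers to at most 6.75. The 9 stellate and fibroblast markers were higher in batch 1 (119 to 205 CPM treated, 109 to 169 vehicle) than in batch 2 (34.6 to 58.6 and 35.6 to 51.0). The biliary sum lay wholly below vehicle in both batches of caffeine (30.9 to 36.6 against 37.0 to 44.2 CPM in batch 1, 34.2 to 38.1 against 39.9 to 47.4 in batch 2) and diclofenac (30.1 to 36.5 and 29.3 to 36.1), in batch 2 of chloramphenicol (24.9 to 28.1) and in batch 1 of ranitidine (27.4 to 36.0). Most of it was Epcam (mean 30.3 CPM). In diclofenac the hepatocyte sum lay wholly above vehicle in batch 2 (44278 to 47274 against 37970 to 43566 CPM) and the stellate and fibroblast sum in batch 1 (188 to 205 against 109 to 169). The part of these sums in the results of the drugs was not tested. Krt7 was at 0 in 38 of 39 wells and Col1a1 and Des in 28. In bulk lysates fewer cells of a type and less RNA per cell cannot be told apart.

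Repeatable genes were sought next, meaning genes called in both assays' joint fits and changed in the same direction in each of the 4 single fits of 1 batch and 1 assay. Of 1603 genes tested in both assays, caffeine had 6 (0.374%), diclofenac 5 (0.312%), and chloramphenicol, isoniazid and ranitidine 1 each (0.0624%). These 14 pairs of gene and drug held 13 genes. All but 1 rose, the exception being Fabp4 in caffeine. An adjusted p under 0.05 in each of the 4 single fits was met by Cyp1a2 in isoniazid, Cyp2c24 in ranitidine and Tsku in diclofenac, and by no gene in caffeine or chloramphenicol with edgeR or with DESeq2, when genes were matched by symbol. The number of such genes rested on few wells, since it ranged from 0 to 1 in diclofenac and ranitidine when 1 well was left out and stayed at 1 in isoniazid. With only the wells of the 5 drugs and vehicle in the fit the repeatable genes numbered 16 in caffeine, 3 in chloramphenicol, 21 in diclofenac, 1 in isoniazid and 2 in ranitidine. Against the vehicle wells of the same plate in batch 2 they numbered 2, 1, 3, 1 and 1 in the same order, and with medium alone as the control between 103 and 207 per drug. Leaving out 1 well gave 3 to 10 in caffeine, 0 to 2 in chloramphenicol and 3 to 6 in diclofenac. The assays read the same lysates, so their agreement bears on the measurement, and the batches are the separate cultures.

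**Figure D2:**
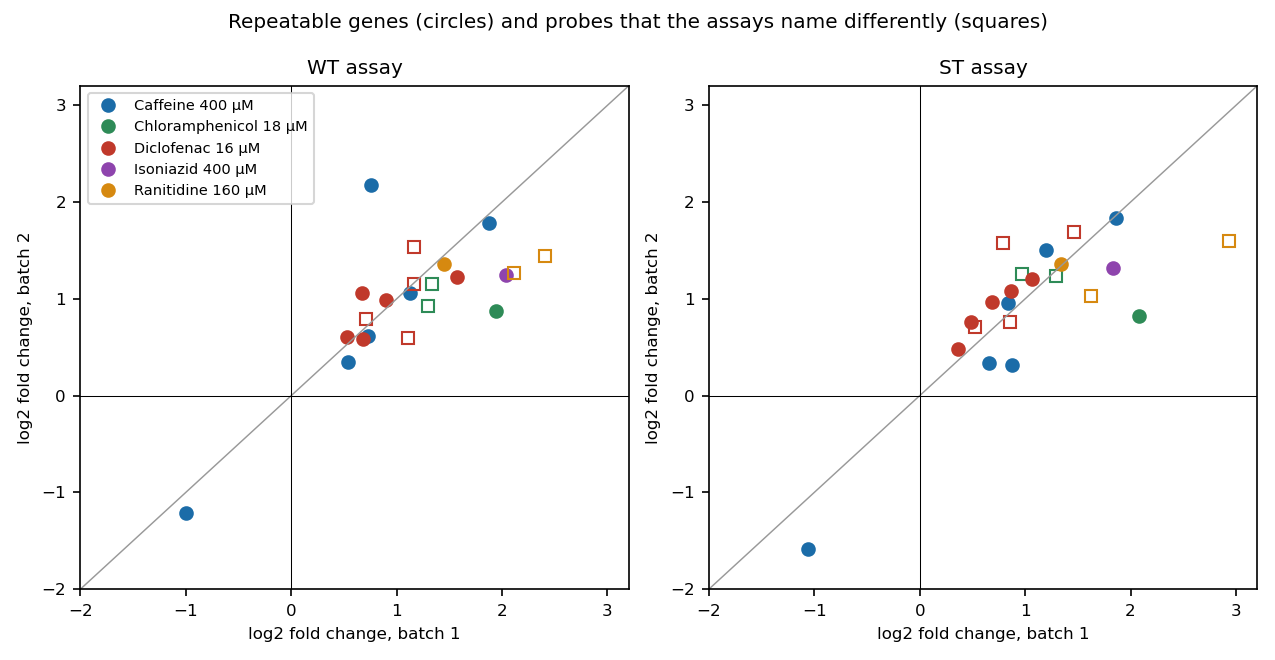
L2FC in batch 1 (x axis) and batch 2 (y axis) of the repeatable genes (circles) and of repeatable probes that the assays name differently (squares), coloured by drug, for the WT and the ST assay, with the line of equal change in grey. Every point lies in the quadrant of its direction, as the rule requires, and Cyp1a2, Cyp2b2 and the Cyp3a probes lie below the line.

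Isoniazid raised 1 repeatable gene, Cyp1a2, an AhR target whose enzyme oxidizes aromatic amines and caffeine. In the WT assay its wells held 1939, 2524 and 2258 CPM in batch 1, against 628, 607 and 434 with vehicle. Batch 2 held 1379, 1614 and 1548 CPM, against a lowest of 504, a median of 647 and a highest of 734 with vehicle. No treated well overlapped the vehicle wells in either batch or assay. The L2FC was 1.59 ± 0.19 (SE; edgeR adjusted p = 5.92e-11) in the WT assay and 1.55 ± 0.17 (edgeR adjusted p = 1.54e-13) in the ST assay, with 2.04 in batch 1 and 1.25 in batch 2 of the WT assay. At 10000 µM isoniazid the L2FC was 1.60 ± 0.19. Cyp1a1, a further AhR target, was the other WT DEG of isoniazid (L2FC 0.94 ± 0.20, edgeR adjusted p = 0.033). Its wells rose clear of vehicle in batch 2 (72.5, 88.3 and 82.5 CPM against 27.2 to 40.7) but overlapped in batch 1 (45.1, 32.1 and 56.7 against 35.6, 35.2 and 25.8), and the ST assay did not call it (L2FC 0.81, edgeR adjusted p = 0.482). The WT call of Cyp1a1 was lost without any 1 of 10 wells. Of the 8 listed AhR targets 6 were tested, and all 6 had a positive L2FC with a median of 0.71, against −0.01 over all genes, with 2 called beside 0.0196% of all genes. The remaining 4 did not pass the test: Aldh3a1 had an L2FC of 1.26 (edgeR adjusted p = 0.0825), Cyp1b1 0.48, Tiparp 0.13 and Nqo1 0.12.

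Ranitidine raised 3 WT probes of the Cyp3a family, whose enzymes oxidize steroids and many drugs, together with Cyp2c24, a cytochrome P450 of the Cyp2c family. Another member, Cyp3a9, was not called (L2FC 0.20, edgeR adjusted p = 0.820). Cyp2c24 was its repeatable gene. The WT wells held 32.3, 19.1 and 24.3 CPM in batch 1 against 9.97, 9.82 and 8.53 with vehicle. In batch 2 they held 11.6, 9.17 and 6.68 CPM, against a lowest of 2.17, a median of 3.94 and a highest of 4.44. Treated and vehicle wells did not overlap in any batch or assay. The L2FC was 1.40 ± 0.22 (edgeR adjusted p = 4.99e-06) in the WT assay and 1.36 ± 0.22 (edgeR adjusted p = 2.41e-06) in the ST assay, and the batches differed little (1.45 and 1.36 in the WT assay). Against culture medium alone the L2FC of Cyp2c24 was 0.65 and missed the threshold (edgeR adjusted p = 0.051).

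The Cyp3a probes carry different names in the 2 panels, so the match by symbol left them out. Among 2286 probe numbers found in both panels, 162 had another symbol. The probe named LOC100910877 in the WT panel is Cyp3a1 in the ST panel, and AABR07035374.1 is Cyp3a2. LOC100910877 stood at 35.5, 27.7 and 46.5 CPM with ranitidine in batch 1 against 9.01, 6.61 and 5.12 with vehicle, and at 12.0, 12.1 and 6.56 in batch 2 against 3.22, 3.66 and 4.4 (lowest, median and highest). All treated wells lay above all vehicle wells. Its L2FC was 1.97 ± 0.23 (edgeR adjusted p = 3.62e-11), and that of Cyp3a1 in the ST assay 2.24 ± 0.24 (edgeR adjusted p = 3.89e-14). AABR07035374.1 stood at 52.1, 44.3 and 61.0 CPM against 13.0, 11.6 and 12.3 in batch 1, and at 25.1, 18.5 and 16.8 against 6.95, 8.61 and 9.01 in batch 2. These wells did not overlap either, although those of Cyp3a2 in batch 1 of the ST assay did (29.2, 86.6 and 84.8 CPM against 32.9, 18.6 and 13.0). The L2FC was 1.70 ± 0.21 (edgeR adjusted p = 7.73e-10) in the WT assay and 1.29 ± 0.24 (edgeR adjusted p = 0.000137) in the ST assay. The WT probe, AABR07035343.1, which the ST panel names Cyp3a23/3a1, rose by an L2FC of 2.36 ± 0.37 (edgeR adjusted p = 4.99e-06) from below 1.01 CPM in every vehicle well, with 3.07 in batch 1 and 1.55 in batch 2, where it was not called alone (edgeR adjusted p = 0.202). Cyp3a copies are nearly identical, and which copy each probe read is uncertain. These are the genes whose promoters above hold the direct repeat, as far as the names match, and a link of the repeat to ranitidine was not tested. The remaining WT calls of ranitidine, Ltbp4 (L2FC −0.79) and Coq4 (−0.70), and the ST call Sult2a6 (1.28) were not tested under the same symbol in the other assay, so the rule by symbol could not be applied to them. Matched by probe number, the Sult2a6 probes, named Sult2a2 in the WT panel, were not repeatable in ranitidine. The ST call Pik3ca (−0.99) was not repeatable, with a WT L2FC of 0.05.

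Chloramphenicol raised Cyp2b2, a P450 known as a marker of CAR activity, and a Ugt2b glucuronosyltransferase. For Cyp2b2 the WT wells of batch 1 held 15.3, 15.5 and 12.6 CPM against 3.60, 5.71 and 2.05 with vehicle. Those of batch 2 held 4.16, 4.14 and 2.98, against a lowest of 0.825, a median of 1.95 and a highest of 3.33. The groups overlapped there, and did not in batch 1 or in the ST assay. The L2FC was 1.53 ± 0.34 (edgeR adjusted p = 0.0178) in the WT assay, from 1.95 in batch 1 and 0.87 in batch 2, and 1.64 ± 0.32 (edgeR adjusted p = 0.000413) in the ST assay. The call in the WT assay was lost without any 1 of the 3 treated wells of batch 1, without vehicle well 3 of batch 1 or without vehicle well 4 of batch 2, where the L2FC of Cyp2b2 lay between 1.39 and 1.66. Ugt2b17, whose enzymes attach glucuronic acid to steroids and drugs, held 256, 275 and 185 CPM against 108, 93.6 and 87.7 in batch 1, and 186, 182 and 118 against 65.9, 77.0 and 87.2 in batch 2. No wells overlapped, and the L2FC was 1.27 ± 0.23 (edgeR adjusted p = 0.00124). The ST panel reads its probes as Ugt2b10 (L2FC 1.35, edgeR adjusted p = 4.25e-05) and Ugt2b1 (1.17, edgeR adjusted p = 0.00013). In batch 1 the chloramphenicol wells were on a plate without vehicle, so plate and treatment cannot be told apart there. Ketoconazole (0.6 µM) shared the plate in both batches and itself changed 1.62% of WT genes. Against it, in the joint fit, the L2FC of Ugt2b17 was −0.01 and that of Cyp2b2 1.16 (edgeR adjusted p = 0.167). In batch 2, where 3 of the 6 vehicle wells shared the plate, Ugt2b17 had 1.07 (edgeR adjusted p = 0.00057) and Cyp2b2 0.87 (edgeR adjusted p = 0.306).

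Diclofenac raised 5 repeatable genes, and none fell. Matched by probe number, Sult2a2 probes that the ST panel names Sult2a6 were also repeatable (WT L2FC 1.42 and 1.31). So were AABR07057436.1, named Rdh7 there (0.77), and Dhrs7 (0.93), among others. Tsku, which encodes a secreted leucine-rich proteoglycan of the liver, passed in each of the 4 single fits. Its WT wells held 122, 90.9 and 116 CPM against 66.6, 57.7 and 54.9 in batch 1, and 130, 82.8 and 74.0 in batch 2 against a lowest of 40.5, a median of 49.3 and a highest of 53.1. The wells did not overlap, with an L2FC of 1.00 ± 0.19 (edgeR adjusted p = 0.000721) in the WT assay and 1.03 ± 0.19 (edgeR adjusted p = 0.000382) in the ST assay. Over the mean of the 5 drugs Tsku was at 0.03 in batch 1 and 0.89 in batch 2 of the WT assay. That difference between batches was called (edgeR adjusted p = 0.0389). Ces1d, a carboxylesterase that splits lipid and drug esters, had the highest L2FC of the 5, at 1.41 ± 0.21 (edgeR adjusted p = 1.73e-06) in the WT assay and 1.18 ± 0.25 (edgeR adjusted p = 0.00244) in the ST assay. It rose from 8.89, 10.0 and 9.21 CPM to 18.8, 29.3 and 33.7 in batch 1, and to 23.6, 39.2 and 27.0 in batch 2, against 9.15, 12.8 and 15.7 (lowest, median and highest), with no overlap. Urad, an enzyme of uric acid breakdown, had an L2FC of 0.92 in the WT and 0.86 in the ST assay, and Amy1a, an amylase, 0.69 and 0.67. Both stood clear of vehicle in each batch and assay, although the WT call of Amy1a was lost without treated well 3 of batch 1 (edgeR adjusted p = 0.127). Ttpa, the transfer protein for vitamin E, had 0.56 and 0.44, with an overlap in batch 2 of the ST assay. Csad, an enzyme of taurine synthesis, was called in both batches of the WT assay (L2FC 0.86 ± 0.15, edgeR adjusted p = 0.000154) and was not tested in the ST assay. Its wells overlapped in batch 2 (23.8, 33.5 and 29.5 CPM against 13.2 to 24.2), and its L2FC against medium alone was −0.05. Among list members, Cyp2b2 (L2FC 1.40 ± 0.34, edgeR adjusted p = 0.0416), the lipogenic regulator Srebf1 (0.61 ± 0.13, edgeR adjusted p = 0.00942) and Pck1 (1.12 ± 0.26, edgeR adjusted p = 0.0246) were WT DEGs that the ST assay did not call. The call of Cyp2b2 was lost without any 1 of 10 wells and that of Pck1 without any 1 of 6.

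Caffeine had 6 repeatable genes, of which 5 rose and 1 fell. Pck1, which encodes the rate-limiting enzyme of gluconeogenesis, held 18.6, 16.4 and 15.0 CPM in the WT wells of batch 1 against 3.96, 6.43 and 3.41 with vehicle. In batch 2 it held 16.6, 15.4 and 9.51, against a lowest of 2.60, a median of 3.60 and a highest of 5.82. Treated wells lay above vehicle in both batches and assays. The L2FC was 1.90 ± 0.24 (edgeR adjusted p = 7.32e-09) in the WT assay and 1.85 ± 0.40 (edgeR adjusted p = 0.00441) in the ST assay, at 1.88 and 1.78 in the 2 batches of the WT assay. Fabp4, a fatty acid binding protein best known from fat cells and macrophages, fell. Its wells held 10.1, 12.7 and 12.9 CPM against 21.3, 28.0 and 22.5 in batch 1, and 12.1, 16.0 and 14.8 against 26.4, 32.9 and 40.5 (lowest, median and highest) in batch 2. No wells of Fabp4 overlapped in either assay, and the L2FC was −1.22 ± 0.20 (edgeR adjusted p = 3.28e-05) and −1.44 ± 0.25 (edgeR adjusted p = 0.000106). Hdc, the enzyme that makes histamine, had an L2FC of 1.53 ± 0.30 (edgeR adjusted p = 0.00162) in the WT assay from low levels: 3.79, 6.05 and 5.11 CPM against 2.04, 4.82 and 2.22 in batch 1, which overlapped, and 3.70, 4.65 and 3.88 against 0.416, 0.870 and 1.45 in batch 2, which did not. The call of Hdc was lost against the 3 vehicle wells of the same plate in batch 2 (L2FC 1.30, edgeR adjusted p = 0.065). Over the mean of the 5 drugs Hdc was at −0.35 in batch 1 and 1.38 in batch 2 of the WT assay, a called difference (edgeR adjusted p = 0.0389). Ces1d rose by 1.11 ± 0.21 (edgeR adjusted p = 0.000873) and 0.96 ± 0.25 (edgeR adjusted p = 0.0385) in the WT and ST assays, to 13.5, 21.9 and 25.7 CPM in batch 1 and 19.9, 25 and 35.1 in batch 2 of the WT assay. These lay above the vehicle values given for diclofenac, but 1 well overlapped in batch 1 of the ST assay. LOC100911177 (0.68 and 0.66, with an overlap in batch 2 of the ST assay) and Pink1, a kinase that marks damaged mitochondria (0.41 and 0.50), rose by less. Both calls were lost without treated well 2 of batch 1, and that of Pink1 also without treated well 3 or vehicle well 3 of batch 1 or treated well 1 of batch 2.

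**Figure D3:**
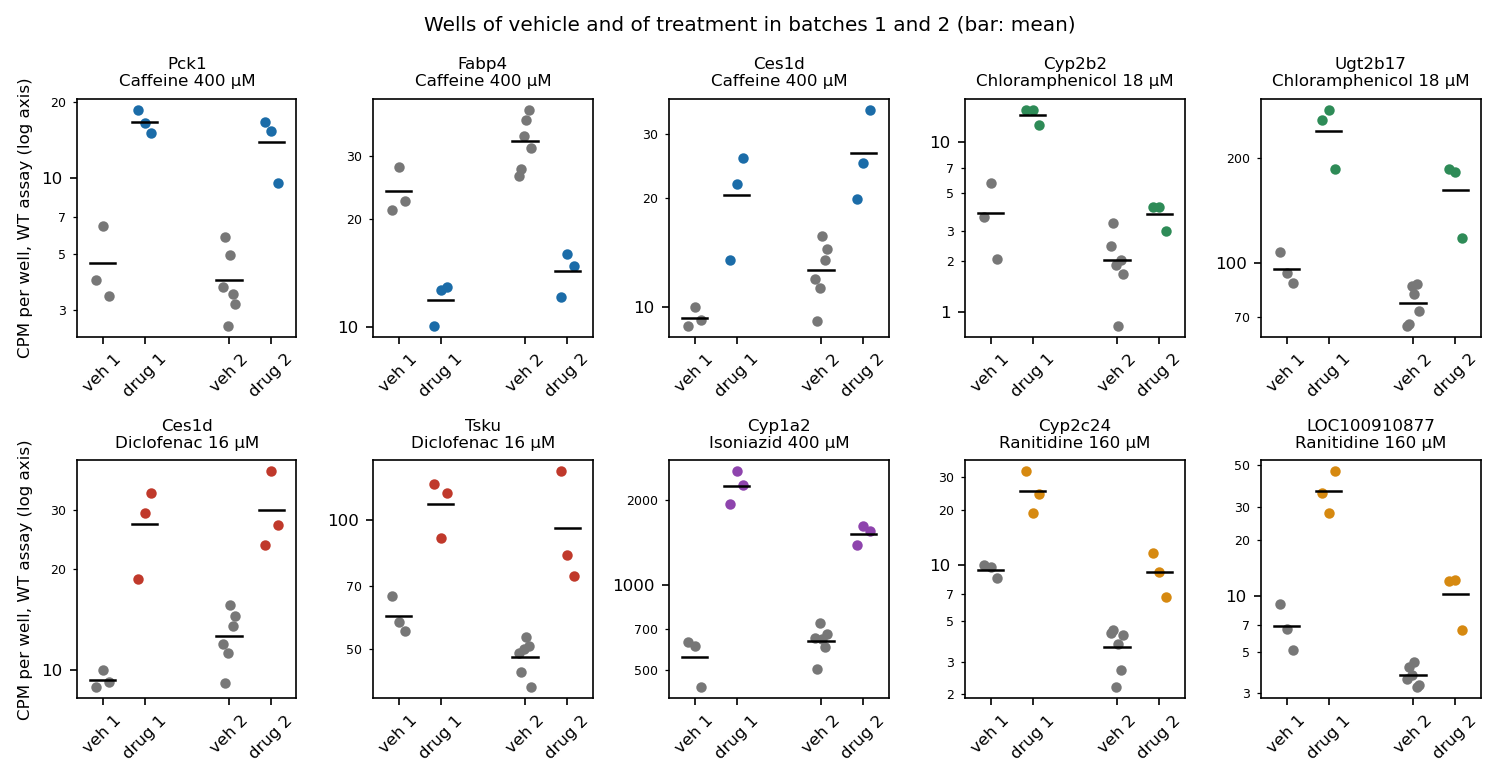
CPM per well in the WT assay (y axis, log scale) for leading genes of each drug, with vehicle and treated wells of batches 1 and 2 side by side, a point per well and a bar at the mean. Treated wells lie apart from vehicle in both batches, except where Cyp2b2 with chloramphenicol overlaps in batch 2 (2.98 CPM against 3.33).

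The cAMP list gave 1 call in caffeine, Pck1, among 12 tested genes of 17, beside 0.118% of all genes. The median L2FC of the list was 0.31, against 0.01 over all genes. G6pc, the last enzyme of glucose release, had an L2FC of 1.31 (edgeR adjusted p = 0.544), Tat, a tyrosine aminotransferase, 0.53 (edgeR adjusted p = 0.0704), and Pde4b, a cAMP phosphodiesterase, 0.41 (edgeR adjusted p = 0.189). The early cAMP genes Crem and Sik1 had −0.03 and 0.22, and the list members Nr4a2 and Irs2 0.54 and 0.47, none of them called. Of the 12 tested, 9 had a positive L2FC. Of the 21 listed CAR and PXR targets 16 were tested, and chloramphenicol changed 2, diclofenac 1 and ranitidine 3, all upward (beside 0.0883%, 0.137% and 0.0589% called over all genes), while caffeine and isoniazid changed none in the WT assay with edgeR. In the ST assay caffeine raised Cyp2b2 (L2FC 1.33, edgeR adjusted p = 0.0344). The medians of this list were 0.37 in caffeine, 0.10 in chloramphenicol, 0.32 in diclofenac, 0.28 in isoniazid and 0.38 in ranitidine, against medians over all genes between −0.01 and 0.01. In caffeine and diclofenac 15 of the 16 had a positive L2FC, in ranitidine 13 and in chloramphenicol and isoniazid 10 each. Other lists had medians of like size with no WT call, such as cholesterol synthesis in diclofenac (0.38, with 20 of 20 positive) and the cell cycle genes in isoniazid (0.30, with 10 of 11 positive), and in caffeine 0 of the 12 tested genes of fatty acid synthesis had a positive L2FC (median −0.12). Over all 24 lists, of which 23 had tested members, no member was called lower in any drug, and over all 10191 genes between 0 and 3 were.

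Ces1d was the 1 gene repeatable in more than 1 drug, namely in caffeine and diclofenac. Its WT L2FC was 0.50 in ranitidine, 0.38 in isoniazid and 0.06 in chloramphenicol, none of them called. Against the mean of the other 4 drugs, the L2FC of Ces1d in caffeine was 0.52 (edgeR adjusted p = 0.323), and the number of shared genes ranged from 0 to 1 when 1 well was left out. With only the wells of the 5 drugs and vehicle in the fit it was 8, among them Cyp2b2, shared by 3 drugs, and Ces1d, Cyp2c24, Sult1b1, Slc22a8, Fetub and Cxcl10, shared by 2. Matched by probe number alone over 1481 probes, the repeatable probes numbered 10 in diclofenac (0.675%), 5 in caffeine (0.338%), 3 in chloramphenicol (0.203%), 3 in ranitidine (0.203%) and 1 in isoniazid (0.0675%). Of these, 3 in ranitidine and 1 each in chloramphenicol (the Ugt2b17 probe that the ST panel calls Ugt2b10), diclofenac and isoniazid passed in each of the 4 single fits. A second shared probe then appeared, the Ugt2b17 probe that the ST panel calls Ugt2b1, in chloramphenicol and diclofenac. The 5 comparisons share their vehicle wells, so a shift of those wells would appear in all 5. Ugt2b17 was positive in each, at 0.81 in caffeine, 1.27 in chloramphenicol, 0.85 in diclofenac, 0.68 in isoniazid and 0.79 in ranitidine, with chloramphenicol the only call. Cyp2b2 was likewise positive in each, from 0.43 in ranitidine to 1.53, and called in chloramphenicol and diclofenac. So was Tsku, from 0.27 in isoniazid to 1.00 in diclofenac, where alone it was called. Cyp1a2 ran from −0.16 in chloramphenicol to 1.59 in isoniazid, and Pck1 from −0.07 in chloramphenicol to 1.90 in caffeine.

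**Figure D4:**
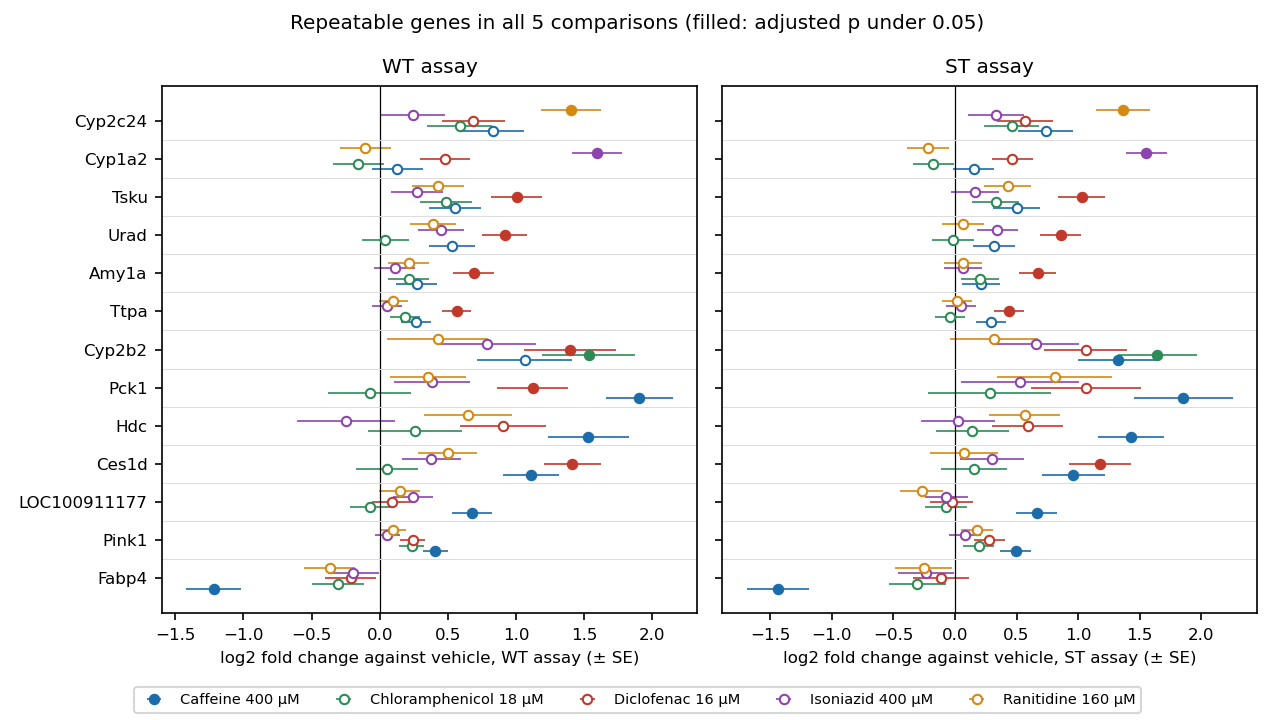
L2FC against vehicle ± SE (x axis) of each repeatable gene in all 5 drugs, for the WT and the ST assay, with filled symbols at an adjusted p under 0.05. Ces1d is filled in caffeine and diclofenac, while Cyp1a2 is filled in isoniazid alone among the 5.

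The mean of the 5 drugs against vehicle gave 1 DEG in the WT assay (0.00981%), Ugt2b17 (L2FC 0.88 ± 0.18, edgeR adjusted p = 0.0185), and 545 genes at an unadjusted p under 0.05. No WT call remained without vehicle well 1, 2, 3, 4 or 6 of batch 2. The ST assay gave 9 (0.511%, and 2 to 13 when 1 well was left out), 7 higher and 2 lower. Those higher were Cyp2b2 (1.00), Cyp2b1 (0.94, with a WT L2FC of 0.18), Ugt2b10 (0.86), Sult2a6 (0.82), Ugt2b1 (0.77), Cyp3a1 (0.76) and Cyp2c24 (0.69), and those lower Pik3ca (−0.63) and Slc22a8 (−0.40). No gene was repeatable for this mean in the edgeR fit of all wells (0%), against 2 with DESeq2 and 4 with only the wells of the 5 drugs and vehicle in the fit. Medium alone against vehicle, by contrast, gave 1285 DEGs in the WT assay (12.6%).

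At 25 times the concentration, 7 of the 14 repeatable changes kept their direction and were called in the WT assay, 5 were called in the opposite direction and 2 were not called. In caffeine Pck1 went from 1.90 to 10.59, LOC100911177 from 0.68 to 3.56 and Pink1 from 0.41 to 2.25, while Ces1d stayed near its value (1.11 and 1.21), Fabp4 went from −1.22 to −0.75 and Hdc from 1.53 to −0.03. Cyp2b2 in chloramphenicol went from 1.53 to 4.22. In diclofenac Ces1d reached −2.87, Urad −3.48, Amy1a −2.91 and Ttpa −2.03, and Tsku was not called (0.38). Cyp2c24 in ranitidine went from 1.40 to −4.69, and LOC100910877 from 1.97 to −1.45, while the other WT probes of the Cyp3a family, AABR07035374.1 (−0.41) and AABR07035343.1 (−0.16), were not called at the high concentration, nor were Cyp3a1 (−0.53) and Cyp3a2 (−0.38) in the ST assay. Wells of the low concentration alternated with those of the high concentration of the same drug on the plate, while vehicle wells lay in other columns. The extra CPM of Pck1 at the low concentration was 0.178% of that at the high one, that of LOC100911177 5.55% and that of Pink1 8.70%, and the part that carry-over between neighbouring wells could play was not tested.

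**Figure D5:**
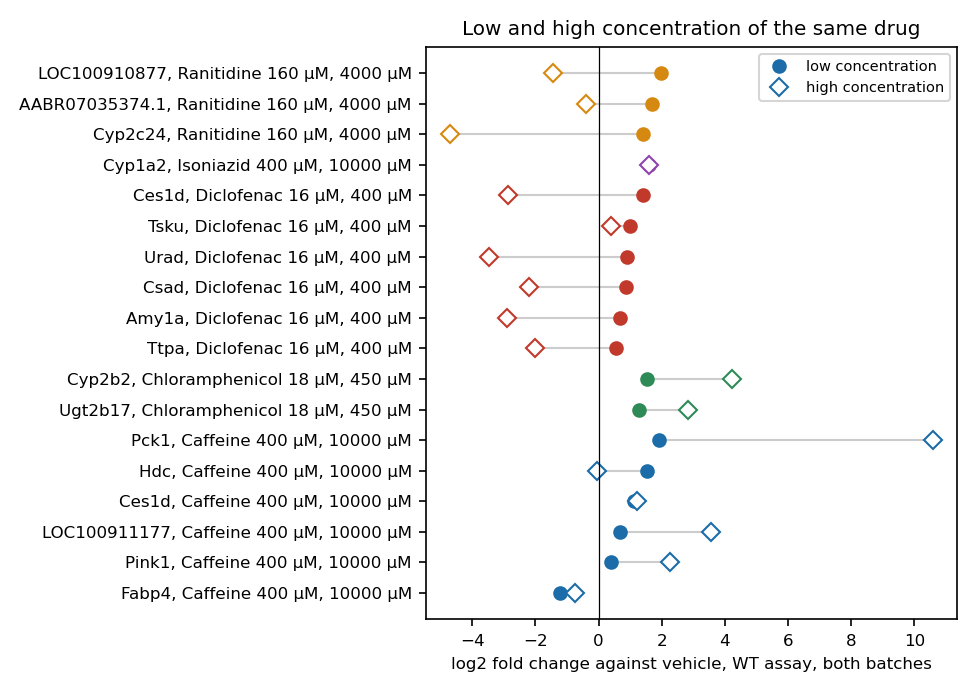
L2FC against vehicle in the WT assay (x axis) at the low concentration (circles) and the high concentration (diamonds) of the same drug, a row per gene and drug. The diclofenac genes Ces1d, Urad, Amy1a and Ttpa and the ranitidine gene Cyp2c24 lie on opposite sides of 0, and Pck1 in caffeine moves from 1.90 to 10.59.

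The 2 batches were also compared directly by a test of the difference between their changes. In the WT assay that test called 111 genes in chloramphenicol (1.09%; 76 with the higher change in batch 2 and 35 with the lower) and 5 in ranitidine (0.0491%), and none in caffeine, diclofenac or isoniazid by edgeR, where 609, 714 and 722 genes had an unadjusted p under 0.05. No repeatable gene, matched by symbol, was among those called in its own drug in either assay. The rule asks for the same direction in both batches, which makes such calls less likely. Hdc in caffeine (WT L2FC 0.75 and 2.18, edgeR unadjusted p = 0.004) and Cyp1a2 in isoniazid (edgeR unadjusted p = 0.017) came closer in the WT assay. Of 10191 genes, single WT fits called more in batch 2 than in batch 1, with 174 against 6 in chloramphenicol, 80 against 6 in diclofenac, 70 against 3 in caffeine, 8 against 1 in isoniazid and 11 against 9 in ranitidine. Batch 2 had 6 vehicle wells against 3, and a median of 7199980 counts against 6357319 in treated WT wells. In batch 1 chloramphenicol had no vehicle well on its plate. The part of these in the gap was not tested.

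Total counts per well ran from 4195334 to 8264980 in the WT assay and from 558190 to 1925240 in the ST assay. Counts of the same group's wells differed by more than sampling noise in all 48 pairs examined in the WT assay, at a chi-square per degree of freedom between 2.17 and 67.2, and the widest pair was of caffeine in batch 1.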

How the data were processed

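TempO-Seq counts of primary rat hepatocytes were taken as deposited. Per the labels and the study's methods, the authors lysed the wells, hybridised the lysate with the ST or the WT panel, sequenced the ligated and amplified probes, and aligned the reads with STAR (2.5.3a, with rn6 among the listed builds). The deposited values were raw read counts per probe and well, with no normalization. Here counts of probes with 1 symbol were summed, genes averaging 10 or more counts across an assay's wells were kept, libraries were scaled by TMM, and treated wells were tested against vehicle with edgeR 4.0.16 (glmQLFit and glmQLFTest) in R 4.3.3. The joint fit held all wells of an assay with batch as a term, and the single fits held 1 batch each. A difference between batches was tested in a fit with a group for each treatment and batch. P-values were adjusted over all genes tested. The script was tested on simulated counts with known changes. CPM values were scaled by TMM.

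The named genes were, per drug, the repeatable ones (at most 12), those called by WT alone in both batches (at most 5), those shared by at least 2 drugs, and at most 2 called members per gene list. Others named (the remaining calls of ranitidine, the further probes of diclofenac, the AhR and cAMP genes that missed the threshold, the batch differences and the genes of the mean of the 5 drugs) were chosen after their values were seen. The members and the lists were chosen with earlier results of these data known. Alternatives were DESeq2 1.42.0, RLE size factors, no filter on counts, a minimum |L2FC| of 1, other controls and wells, and probe matching. Each vehicle well was also left out, and each treated well in all 5 drugs at once. Promoter sequences came from RefSeq (GRCr8). The labels number no replicates, so well numbers follow the accession order. Each CPM rests on its read count, and in the shallowest well (558190 reads) 1 read is worth more than 1 CPM. Results for some genes are not reported here.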

Additional observations from a re-analysis of the deposited data

Results flagged for a closer look

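In the ST assay 1 vehicle well of batch 2 held 437 CPM of Pink1, against 381 to 390 CPM in the other vehicle wells of that batch. It was noted for its gap to the others (0.828 of the range) among 35 groups of vehicle wells looked at. In a search over that many groups some gaps arise by chance, and how often chance gives this size was not tested.

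The change against vehicle differed between the batches by a test of the difference itself (batch 2 minus batch 1, log2 scale, edgeR) in the genes that follow, which were chosen after their values were seen. In chloramphenicol the 2 genes of smallest p among the 111 called in the WT assay were the clock gene Per2 (1.16, from −0.57 in batch 1 to 0.56 in batch 2) and Hdc (3.01, from −1.48 to 1.49). The genes called in the ST assay included Tsku (1.12) and the transporter Slc22a8 (−0.99). In caffeine the ST assay called 1, Cp, which encodes ceruloplasmin (0.97, from −0.09 to 0.87).

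In ranitidine the 5 genes called in the WT assay were Dhrs7l1 (1.72), the P450 gene Cyp2c13 (2.24), Cped1 (1.11), Fdft1, a squalene synthase (0.90), and Car8 (0.84). Of the 10 called in the ST assay, the 3 of smallest p were the cholesterol synthesis genes Idi1 (1.73), Fdft1 (0.98) and Fdps (1.16), each lower than vehicle in batch 1 and higher in batch 2. Cyp3a1 was also among the 10: it rose in both batches, by less in batch 2 (difference −1.34, from 2.94 to 1.60, edgeR adjusted p = 0.0168). Rat and batch cannot be told apart, and for chloramphenicol in batch 1 neither can the plate, which held no vehicle well.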

How the results depend on the processing

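No paired analysis was possible because the labels give no replicate numbers and the wells of a batch share 1 rat, so batch was a term of the fit. Counts below are in the order caffeine, chloramphenicol, diclofenac, isoniazid and ranitidine. The direction and call of Pck1 and Fabp4 in caffeine, Ces1d and Ttpa in diclofenac, Cyp1a2 in isoniazid, and LOC100910877, AABR07035374.1 and AABR07035343.1 in ranitidine held under every alternative run on single genes, among which a minimum |L2FC| was not. Of the 211 values of named genes under other settings, 179 kept direction and side of the threshold, 22 lost the call, 3 gained it and 7 reversed. Of 390 values with 1 well left out, 352 kept direction and side of the threshold, 37 lost the call and 1 reversed. With RLE size factors each count above stayed within 1.5 times its value.

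With DESeq2 the WT calls were 22, 12, 27, 2 and 6, the ST calls 21, 9, 24, 1 and 5, and the mean of the 5 drugs had 4 WT calls and 2 repeatable genes. DESeq2 gave 2 genes shared between drugs. With no filter, WT alone called 1, 2, 2, 0 and 3 genes in both batches, the batches differed in 63 genes in chloramphenicol and in 3 for the mean of the 5, and Pink1 in caffeine (edgeR adjusted p = 0.0621) and Cyp2b2 in diclofenac (edgeR adjusted p = 0.0543) missed the threshold.

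With a minimum |L2FC| of 1 the WT calls were 6, 3, 5, 1 and 4, the ST calls 4, 5, 5, 1 and 4, the repeatable genes 3, 1, 2, 1 and 1, with 0 shared, 0 strictly repeatable in diclofenac, 0 by WT alone in diclofenac, and 0 WT and 1 ST call for the mean of the 5. Against the 3 vehicle wells of the same plate in batch 2 the WT calls were 13, 4, 7, 1 and 7, the ST calls 3, 4, 8, 1 and 4, the repeatable genes 2, 1, 3, 1 and 1, with 0 shared and 0 strictly repeatable in ranitidine, and Ces1d in chloramphenicol was at −0.067. Hdc in caffeine, Amy1a, Cyp2b2, Pck1 and Srebf1 in diclofenac and Cyp1a1 in isoniazid lost their calls.

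With only the wells of the 5 drugs and vehicle the WT calls were 51, 21, 58, 8 and 9, the ST calls 35, 12, 56, 1 and 17, the repeatable genes 16, 3, 21, 1 and 2, with 8 shared. Strictly repeatable genes were 0, 0, 0, 1 and 0, WT alone called 0 in diclofenac, and the mean of the 5 had 12 WT and 23 ST calls and 4 repeatable genes. The batches then differed in 3 genes in ranitidine and in 2 for the mean of the 5. With a group for each treatment and batch the WT calls were 64, 29, 87, 9 and 20, the ST calls 33, 8, 54, 1 and 13, the repeatable genes 15, 3, 24, 1 and 3, with 7 shared, and the mean of the 5 had 16 WT calls and 5 repeatable genes.

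Against medium alone the WT calls were 1341, 1075, 1216, 1093 and 559, the ST calls 511, 338, 509, 367 and 202, the repeatable genes 207, 117, 181, 183 and 103, with 196 shared, the strictly repeatable 39, 24, 24, 17 and 13, and WT alone called 165, 89, 92, 106 and 73. The mean of the 5 then had 2004 WT and 626 ST calls and 260 repeatable genes. Csad in diclofenac reversed to −0.046, and Urad (0.15), Amy1a (0.24), Srebf1 (0.04) and Pck1 (0.66) in diclofenac and Cyp2c24 in ranitidine (0.65) lost their calls. These wells are labelled as medium alone, so solvent and drug cannot be told apart there.

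Against the mean of the other 4 drugs the WT calls were 15, 33, 21, 3 and 9, the ST calls 10, 3, 19, 1 and 8, the repeatable genes 7, 3, 4, 1 and 2, with 0 shared, the strictly repeatable 1, 0, 0, 1 and 0, and WT alone called 1, 3, 5, 0 and 2. Ces1d was then at −0.79 in chloramphenicol, −0.39 in isoniazid and −0.24 in ranitidine, and Ces1d and Pink1 in caffeine, Cyp2b2 and Ugt2b17 in chloramphenicol, and Tsku, Amy1a, Cyp2b2 and Pck1 in diclofenac lost their calls. Against ketoconazole on the same plate chloramphenicol had 2 repeatable genes and 3 by WT alone, with Ugt2b17 at −0.0078 and Ces1d at −0.89. Matching probes by number alone, an alternative chosen after seeing the data, gave 5, 3, 10, 1 and 3 repeatable probes and 2 for the mean of the 5. The cause of these changes was not tested.

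A treated well was left out of all 5 drugs at once, and vehicle wells 1 at a time. The WT calls then ranged from 8 to 30 in caffeine (30 without treated well 1 of batch 1, 25 without vehicle well 2 of batch 1), 2 to 15 in chloramphenicol (15 without treated well 2 and 2 without treated well 3 of batch 1 or vehicle well 4 of batch 2), 9 to 39 in diclofenac (39 without treated well 1 of batch 1), 1 to 2 in isoniazid, 4 to 10 in ranitidine (10 without vehicle well 2 of batch 1) and 0 to 6 for the mean of the 5. The ST calls ranged from 3 to 20, 5 to 10, 8 to 24, 1 to 1 and 4 to 6, and from 2 to 13 for the mean of the 5. Repeatable genes ranged from 3 to 10, 0 to 2, 3 to 6, 1 to 1 and 1 to 1, from 0 to 1 for the mean of the 5 and from 0 to 1 for genes shared between drugs. Strictly repeatable genes ranged from 0 to 1 in diclofenac (lost without any 1 well of batch 1 or treated well 1 of batch 2) and ranitidine (lost without treated well 1 or 2 of batch 2). Ces1d in chloramphenicol, never called, turned to −0.045 without treated well 2 of batch 1. Genes by WT alone ranged from 0 to 1 in caffeine and chloramphenicol and from 0 to 2 in diclofenac. Low genes rest on few reads in the ST assay, where Pck1 stood at 0.763 CPM in 1 vehicle well.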
